A study of Mus musculus with 4 samples.

Results

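The genes described here are 10 genes of the red cell lineage, the carbonic anhydrases Car1 and Car2, the membrane proteins Rhd and Aqp1, the transcription factors Klf1 and Gata1, the erythropoietin receptor gene Epor, and the globins Hba-a1, Hba-a2 and Hbb-bt, together called the members. They were chosen by their symbols, with their counts in the comparison of BcorΔE9-10 and BcorWT cells already known, so that their differences between the genotypes are given as a description without a test. Of the 10, 9 were among the 12067 genes of the count table, and Epor was not analysed here. RNA was measured by Quant-seq, which counts each transcript near its 3′ end, in KL cells of donor origin. These are bone marrow cells sorted for cKit and against lineage antigens and Sca-1, a gate that holds the progenitors of the myeloid lineages. There were 2 libraries per genotype.

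The BcorΔE9-10 donors carried the genotype scl-Cre-ERT +; Bcorfl/y, in which tamoxifen-activated Cre removes the floxed exons of the X-linked Bcor gene. The BcorWT donors carried Bcorfl/y with no Cre. Both groups therefore shared the floxed allele, and per the methods of the study both were given tamoxifen. The Cre transgene is driven by a stem cell enhancer of Scl (Tal1), itself a regulator of the red cell lineage. Whole bone marrow was transplanted into Ptprca recipients, which were irradiated sub-lethally and so kept cells of their own, and donor cells were sorted by CD45.2 after 20 weeks. The lineage depletion included Ter-119, and red cells were lysed before the sort, so that late erythroid cells were depleted from both groups. The labels do not say whether the 2 libraries of a genotype came from separate mice, so the spread between them may be technical.

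Red cells arise in the marrow from progenitors that share the KL gate with those of granulocytes, monocytes and megakaryocytes. GATA1 and KLF1 are the transcription factors that switch on the globins, the haem pathway and the red cell membrane proteins, and erythropoietin, acting through its receptor, keeps the progenitors alive. Carbonic anhydrases interconvert carbon dioxide and bicarbonate, RHD belongs to the Rh complex of the red cell membrane, AQP1 is its water channel, and alpha and beta globin chains form haemoglobin.

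On GRCm38 (GENCODE M21), Car1 (ENSMUSG00000027556) lies at chr3:14766216-14808368 on the minus strand and Car2 (ENSMUSG00000027562) at chr3:14886273-14900770 on the plus strand, 77905 bases apart with Car3 between them. Hba-a1 (ENSMUSG00000069919, chr11:32283511-32284465) and Hba-a2 (ENSMUSG00000069917, chr11:32296489-32297298) lie 12024 bases apart on the plus strand. Rhd (ENSMUSG00000028825) lies at chr4:134864536-134896172, Aqp1 (ENSMUSG00000004655) at chr6:55336432-55348555 and Klf1 (ENSMUSG00000054191) at chr8:84901928-84905291, all on the plus strand. Gata1 (ENSMUSG00000031162) lies at chrX:7959260-7978071, Hbb-bt (ENSMUSG00000073940) at chr7:103812524-103813996 and Epor (ENSMUSG00000006235) at chr9:21958897-21963506, all on the minus strand. Of these 10 genes, Car1 alone overlaps another annotated gene, the processed pseudogene Gm16399, which lies on the same strand and was counted on its own.

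Promoter sequences are shown because GATA1 and KLF1, both members, are known to bind GATA sites and CACC boxes at erythroid genes. RefSeq windows (GRCm38.p6, 300 bases, of which 250 precede the start) were held for 8 of the 10 genes, all but Car1 and Car2. They were searched on both strands for AGATAA and AGATAG and likewise TGATAA and TGATAG, and for CCNCNCCC as a CACC box, so that matches of the 2 kinds can share at most 1 base. A GATA match was found in 5 of the 8 windows (62.5%), those of Rhd, Klf1, Epor, Hba-a1 and Hba-a2, against 29.8% of all 32851 windows of this length. The Hba-a1 and Hba-a2 windows share an identical run of 297 bases and are not separate cases. A CACC box match was found in 5 of the 8 (Rhd, Aqp1, Epor, Hbb-bt and Gata1) against 49.5% of all windows. A match of letters is a description and does not show that a factor binds there.

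The sequences below are those of 2 members with almost no counts in BcorWT libraries (Rhd and Klf1) and of 1 alpha and 1 beta globin. Each is given 5′ to 3′ on the strand of the gene, up to the base before the gene's annotated start, with matches in capitals. The Rhd match lies 43 bases before the RefSeq start, the Klf1 match 80 bases (as TTATCA, the reverse complement), and the Hba-a2 match 186 bases. The capitals in Hbb-bt mark a CACC box 107 bases before the RefSeq start. The CACC box match of Rhd lies after its start and is not in the sequence shown.
Rhd, chr4:134864286-134864535, plus strand: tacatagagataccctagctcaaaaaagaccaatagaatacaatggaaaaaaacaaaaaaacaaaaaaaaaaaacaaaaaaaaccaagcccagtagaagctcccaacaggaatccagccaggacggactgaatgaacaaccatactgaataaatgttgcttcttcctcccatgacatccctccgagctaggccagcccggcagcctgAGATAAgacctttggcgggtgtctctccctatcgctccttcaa
Klf1, chr8:84901732-84901927, plus strand: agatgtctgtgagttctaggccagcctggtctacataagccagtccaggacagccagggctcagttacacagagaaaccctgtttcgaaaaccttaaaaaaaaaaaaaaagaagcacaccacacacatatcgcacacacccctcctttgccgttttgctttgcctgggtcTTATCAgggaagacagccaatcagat
Hba-a2, chr11:32296242-32296488, plus strand: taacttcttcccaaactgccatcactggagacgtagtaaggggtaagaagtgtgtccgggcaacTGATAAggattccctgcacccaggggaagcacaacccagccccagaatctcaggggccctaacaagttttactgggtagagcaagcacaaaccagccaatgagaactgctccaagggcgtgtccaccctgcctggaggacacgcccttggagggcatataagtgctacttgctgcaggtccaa
Hbb-bt, chr7:103813997-103814173, minus strand: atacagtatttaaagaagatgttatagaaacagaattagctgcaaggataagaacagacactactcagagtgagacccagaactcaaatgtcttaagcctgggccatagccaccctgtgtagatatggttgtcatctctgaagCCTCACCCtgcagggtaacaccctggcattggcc

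Library totals lay between 3825289.5 and 6253100.5 counts, and 3 counts corresponded to 0.480 to 0.784 CPM (counts-per-million values) before scaling. The CPM given below are scaled by TMM factors unless called unscaled. The BcorWT libraries were the least alike of all pairs (Pearson's r of log2 CPM across genes 0.893, against 0.947 for the BcorΔE9-10 pair). With BcorΔE9-10 replicates 1 and 2, r was 0.924 and 0.940 for BcorWT replicate 1 and 0.901 and 0.902 for BcorWT replicate 2. By this measure BcorWT replicate 2 was the library least like the rest. Gm42418 took 27.9% of the counts of BcorWT replicate 1, 1.43% of BcorWT replicate 2 and 14.3% to 16.3% of the BcorΔE9-10 libraries, and leaving it out before scaling changed no member's direction. For each measured member, the log2 fold change without each of the BcorWT libraries is therefore given beside that of all 4, as a range for the globins. Bcor itself had 104 and 113 counts in BcorΔE9-10 and 58 and 79 in BcorWT libraries, with a fitted log2 fold change of 0.25 (SE 0.36, the standard error). Its 3′ tags lie outside the deleted exons and so do not check the genotype. Over all 12067 genes, edgeR called 2 at an adjusted p under 0.05, which is 0.0166%. These were Gm13167 and Gm11425, neither of them a member.

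Of the 9 members measured, 8 had a log2 fold change above 0 (higher in BcorΔE9-10 cells) and 1, Gata1, was slightly below 0, with a median of 1.24 against -0.03 for all genes. In 7 members (Car1, Car2, Rhd, Klf1, Hba-a1, Hba-a2 and Hbb-bt) both BcorΔE9-10 libraries lay above both BcorWT libraries, as did 16.8% of all genes, and in none did both lie below, as did 17.1% of all genes. The members were picked with this contrast known, so nothing is read from these counts. Rhd and Klf1 reached 2 CPM (unscaled) in the BcorΔE9-10 libraries only, and since every gene of the table reaches about that level in at least 2 libraries, they stood in it only through the group where they were high. Gata1 reached it in 1 library of each genotype, and the other 6 in all 4 libraries. In bulk RNA, fewer cells of a type cannot be told apart from less RNA per cell, here and in each result that follows.

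**Figure D1:**
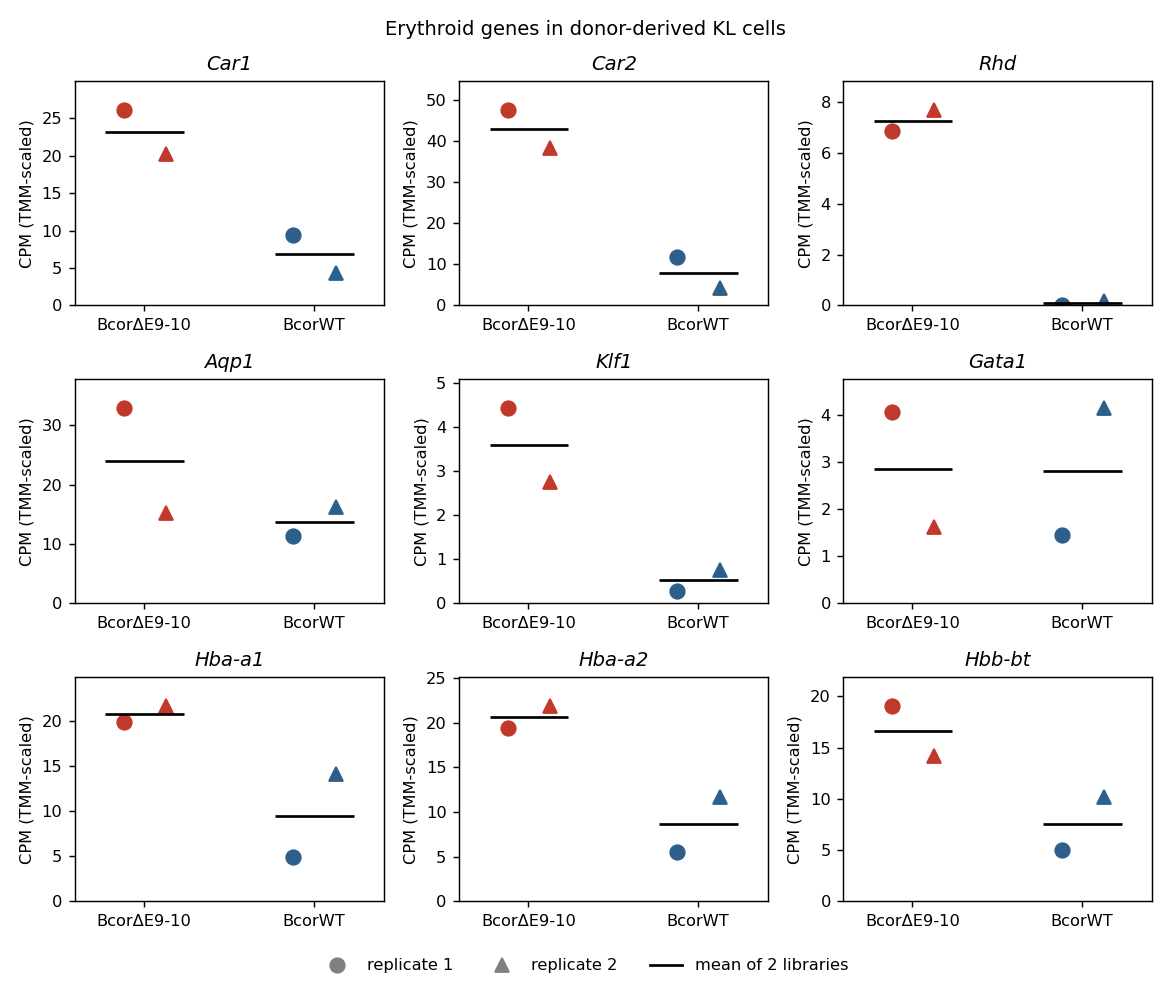
TMM-scaled CPM (y axis, from 0, a scale per gene) of the 9 erythroid genes in the 2 BcorΔE9-10 (red) and 2 BcorWT (blue) libraries; circles are replicate 1, triangles replicate 2 and bars the mean of 2 libraries. The red points lie above both blue points in 7 genes, while Aqp1 and Gata1 overlap between the genotypes.

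Car1 and Car2, the cytosolic carbonic anhydrases of red cell precursors, were both several-fold higher in BcorΔE9-10 cells. Car1 was at 26.1 and 20.2 CPM in the BcorΔE9-10 libraries (141 and 124 counts) and at 9.34 and 4.33 CPM in the BcorWT libraries (32 and 23 counts). The means were 23.1 ± 4.13 and 6.84 ± 3.55 CPM (SD, n = 2), a log2 fold change of 1.78 (SE 0.48). Car2 was at 47.5 and 38.3 CPM (257 and 235 counts) against 11.7 and 4.33 CPM (40 and 23 counts). Its means were 42.9 ± 6.50 and 8.0 ± 5.2 CPM (SD, n = 2), a log2 fold change of 2.45 (SE 0.49).

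In both genes the genotypes did not overlap, and the lowest BcorΔE9-10 library was 2.16 times the highest BcorWT library for Car1 and 3.28 times for Car2. The 2 BcorWT libraries differed from each other by 2.16-fold for Car1 and 2.70-fold for Car2, with replicate 1 the higher in both. Without BcorWT replicate 1 the log2 fold changes were 2.41 and 3.30, and without BcorWT replicate 2 they were 1.30 and 1.87. The pooled counts gave a ratio of 3.65 for Car1 (95% exact interval 2.72 to 4.97) and of 5.91 for Car2 (4.54 to 7.81), intervals that cover counting error only. Among all 12067 genes, Car2 had the 25th highest log2 fold change and Car1 the 68th. Nothing is read from these ranks, since the members were picked with this contrast known.

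Car2 made up 64.6% and 65.5% of the summed Car1 and Car2 counts in the BcorΔE9-10 libraries (398 and 359 counts), and 55.6% and 50% in the BcorWT libraries (72 and 46 counts). The 95% Wilson intervals were 59.8% to 69.1% and 60.4% to 70.2% in the former and 44.1% to 66.5% and 36.1% to 63.9% in the latter, so that they overlapped between the genotypes. Car3, which lies between these genes and encodes an isoform best known from muscle, had 12 and 34 counts, and 15 and 25 in BcorWT libraries, with a log2 fold change of -0.22 (SE 0.65). The pseudogene Gm16399 within Car1 had 44 and 42 counts, and 15 and 27 in BcorWT libraries, with a log2 fold change of 0.65 (SE 0.50). Neither neighbour passed the test over all genes (edgeR adjusted p 0.977 for Car3 and 0.945 for Gm16399).

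Rhd had the widest separation of the members. It was at 6.84 and 7.66 CPM in BcorΔE9-10 libraries (37 and 47 counts), with no count in BcorWT replicate 1 and 1 count in replicate 2 (0.188 CPM). The means were 7.25 ± 0.582 and 0.0941 ± 0.133 CPM (SD, n = 2), and both BcorWT libraries were under the level of 3 counts. The pooled ratio was 63.6 with a 95% exact counting interval of 11.1 to 2541, which shows how little the single BcorWT count fixes the size. The fitted log2 fold change was 5.73 (SE 0.97), and was 3.93 when the prior count was raised to 2. It was 5.11 without BcorWT replicate 1 and 8.18 without BcorWT replicate 2.

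Rhag, which encodes the partner of RHD in the Rh complex, had 25 and 15 counts in BcorΔE9-10 libraries and 1 and 0 in BcorWT libraries. Its pooled ratio was 30.3 (95% exact counting interval 5.13 to 1225), and its edgeR adjusted p was 0.945 over all genes (unadjusted 0.00527), the adjusted value ranging from 0.0563 to 0.999 over the other fits. Rhag was picked out after its values were seen, as the partner of a member.

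Aqp1, the water channel, differed less between the genotypes than between the 2 BcorΔE9-10 libraries. It was at 32.9 and 15.2 CPM in BcorΔE9-10 libraries (178 and 93 counts) and at 11.4 and 16.2 CPM in BcorWT libraries (39 and 86 counts). BcorΔE9-10 replicate 1 stood above the rest, and BcorΔE9-10 replicate 2 lay between the BcorWT libraries. The means were 24.0 ± 12.5 and 13.8 ± 3.39 CPM (SD, n = 2), a log2 fold change of 0.79 (SE 0.47), which was 0.13 without BcorΔE9-10 replicate 1 and 1.25 without BcorΔE9-10 replicate 2. Without BcorWT replicate 1 or 2 it was 0.56 or 1.07.

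Klf1, the erythroid Krüppel-like factor, was low in all libraries and higher in both of BcorΔE9-10. It was at 4.44 and 2.77 CPM (24 and 17 counts) against 0.292 and 0.753 CPM (1 and 4 counts), of which BcorWT replicate 1 was under the level of 3 counts. The means were 3.60 ± 1.18 and 0.522 ± 0.326 CPM (SD, n = 2), and the lowest BcorΔE9-10 library was 3.68 times the highest BcorWT library. The log2 fold change was 2.64 (SE 0.86), 2.22 without BcorWT replicate 1, 3.51 without BcorWT replicate 2 and 2.08 with a prior count of 2. The pooled ratio was 6.21 (95% exact counting interval 2.45 to 20.1).

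Gata1, the factor on which red cell, megakaryocyte, eosinophil and mast cell development all depend, showed no such separation. It was at 4.07 and 1.63 CPM in BcorΔE9-10 libraries (22 and 10 counts) and at 1.46 and 4.14 CPM in BcorWT libraries (5 and 22 counts). Each genotype had 1 high and 1 low library, with means of 2.85 ± 1.72 and 2.80 ± 1.89 CPM (SD, n = 2). The log2 fold change was -0.02 (SE 0.79), and it lay between -0.80, without BcorΔE9-10 replicate 1, and 0.94, without BcorWT replicate 2, and was -0.55 without BcorWT replicate 1. The pooled ratio was 0.897 (95% exact counting interval 0.521 to 1.56), an interval that leaves out the spread between libraries.

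The 3 globins were about 2-fold higher in BcorΔE9-10 cells. Hba-a1, an adult alpha globin, was at 20.0 and 21.7 CPM (108 and 133 counts) against 4.96 and 14.1 CPM (17 and 75 counts). Hba-a2, the second alpha globin, was at 19.4 and 21.8 CPM (105 and 134 counts) against 5.55 and 11.7 CPM (19 and 62 counts). Hbb-bt, an adult beta globin, was at 19.0 and 14.2 CPM (103 and 87 counts) against 4.96 and 10.2 CPM (17 and 54 counts).

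In all 3 globins BcorWT replicate 1 was the lowest library, BcorWT replicate 2 was intermediate and the BcorΔE9-10 libraries were the highest. The log2 fold changes were 1.10 for Hba-a1, 1.24 for Hba-a2 and 1.11 for Hbb-bt, with standard errors of 0.51, 0.46 and 0.48. They ran from 0.56 to 0.82 without BcorWT replicate 1 and from 1.73 to 2.06 without BcorWT replicate 2. Summed, the globins were at 58.4 and 57.7 CPM in BcorΔE9-10 and at 15.5 and 35.9 CPM in BcorWT libraries, the latter 2.32-fold apart. This order of the BcorWT libraries was the opposite of that of Car1 and Car2, which were higher in BcorWT replicate 1.

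The globin genes were counted on near-identical copies, which limits the values of each copy. The Hba-a1 and Hba-a2 transcripts are identical at 537 of 538 aligned bases (99.8%), and at 199 of the last 200, where 3′ tags fall. How the counting treated reads that fit both is not given in the sources used here. Hba-a1 took 50.7% and 49.8% of the alpha globin counts of BcorΔE9-10 libraries and 47.2% and 54.7% of those of BcorWT libraries, and every 95% Wilson interval held equal shares of the copies. Alpha globin is thus best read as 1 value, with 213 and 267 counts against 36 and 137. Hbb-bt and its neighbour Hbb-bs, the other adult beta globin, differ more (159 of the last 200 aligned bases identical). Hbb-bs had 79 and 74 counts in BcorΔE9-10 and 13 and 53 in BcorWT libraries, giving a log2 fold change of 0.92 (SE 0.53, edgeR adjusted p 0.945). Alpha globin made up 53.9% and 62.4% of the counts of these 4 globin genes in BcorΔE9-10 libraries, and 54.5% and 56.1% in BcorWT libraries.

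**Figure D2:**
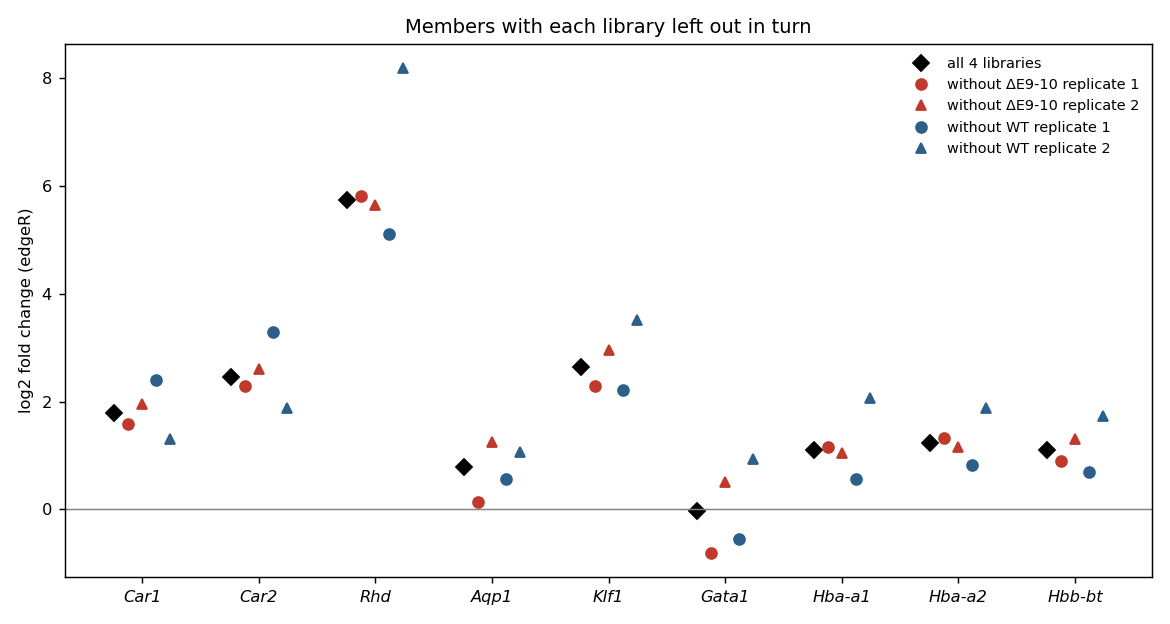
Fitted log2 fold change (y axis, edgeR, BcorΔE9-10 against BcorWT) of each erythroid gene with all 4 libraries (black diamonds) and with 1 library left out (red, a BcorΔE9-10 library; blue, a BcorWT library). Gata1 falls on both sides of 0, Aqp1 comes down to 0.13, and the other 7 genes stay above 0 in every fit.

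The likeness of the members' patterns over the libraries is given from Car1, Klf1 and Hba-a1, as a description of 4 points. With log2 CPM centred on each gene's mean, the Euclidean distance from Hba-a1 was 0.30 to Hba-a2, 0.51 to Hbb-bt and 2.35 to Car2. From Car1 it was 0.76 to Car2 and 1.86 to Hba-a1, and from Klf1 the nearest members were Hbb-bt at 1.00 and Hba-a2 at 1.02. From these 3 genes, Rhd lay at 1.93 to 2.80, Aqp1 at 1.22 to 1.62 and Gata1 at 1.51 to 2.46. Among 9912 other genes with a mean of at least 5 CPM, the nearest to Car1 were Gm15793 (0.33), Hoxb3os (0.41) and Zbtb10 (0.42). The nearest to Klf1 were Hoxa5 (0.23), Gm2830 (0.25) and Abcb4 (0.25), and the nearest to Hba-a1 were Slbp (0.16), Ublcp1 (0.21) and Tnfaip1 (0.33). All of these but Tnfaip1 lay nearer than the nearest member did, out of a pool of genes far larger than the members. Slbp, which encodes the histone stem-loop binding protein, had 562 and 649 counts against 82 and 399. Hoxa5, a homeobox gene, had 58 and 53 counts against 5 and 14.

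The rest of the red cell programme was read from 7 lists holding 144 genes, of which 95 were measured. None of the 95 passed an adjusted p under 0.05 in edgeR, nor in limma-voom or DESeq2. At an unadjusted p under 0.05, edgeR gave 6 as higher (6.32%) and 2 as lower (2.11%), against 1.34% and 3.07% of all genes (4.42% in either direction). Of the 6, 4 stood in the table only through the group where they were high. With a minimum of 10 counts in every library, edgeR gave 3 as higher and 4 as lower at that p. The lists were chosen with earlier results of these data known, so nothing is read from these shares. Of the 95, 58 (61.1%) had a log2 fold change above 0 and 37 below, against 47.7% of all genes above 0. Their median was 0.19, and 0.0493 with the minimum of 10 counts. In 33 (34.7%) both BcorΔE9-10 libraries were above both BcorWT libraries, against 16.8% of all genes, and in 11 (11.6%) both were below, against 17.1%. Without BcorWT replicate 1, edgeR called 4 of them (4.21%), near the 4.94% of the 12063 genes tested in that fit, and all 4 were lower, as were 3.42% of those genes. They were Socs1, Bcl2l1, Cyb5r3 and Ppox (log2 fold changes of -2.22, -1.84, -1.60 and -1.52 in that fit). BcorWT replicate 2 was then the only BcorWT library, and each of these genes was highest in it. Bcl2l1 was at 66.6 CPM there, at 14.6 CPM in BcorWT replicate 1 and at 18.7 CPM in each BcorΔE9-10 library.

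The 6 genes at an unadjusted p under 0.05 and higher, named after their values were seen, were Rhag (above), Tal1, Ermap, Sphk1, Cldn13 and Pklr, each with an edgeR adjusted p of 0.945. Cldn13, a claudin of mouse erythroid precursors, had 26 and 19 counts in BcorΔE9-10 and 1 and 4 in BcorWT libraries, giving a log2 fold change of 2.78 (SE 0.85). Sphk1, sphingosine kinase, had 42 and 25 counts against 7 and 2, and Pklr, the red cell and liver pyruvate kinase, had 13 and 16 counts against 1 and 4. Ermap, an erythroid membrane protein of the Scianna blood group, had 39 and 32 counts against 8 and 10. In Rhag, Ermap, Sphk1, Cldn13, Pklr and Tal1 both BcorΔE9-10 libraries were above both BcorWT libraries. Of these 6, 4 (Rhag, Sphk1, Cldn13 and Pklr) were under 2 CPM (unscaled) in both BcorWT libraries, so that, like Rhd and Klf1, they stood in the table only through the group where they were high. The 2 lower genes were Socs1, an inhibitor of JAK signalling, and Cyb5r3, the reductase of methaemoglobin. Socs1 had 48 and 80 counts against 44 and 271 (-1.55 on the log2 scale), and Cyb5r3 had 103 and 119 against 84 and 309 (-1.11), so that in each the counts were highest in BcorWT replicate 2. Without that library the log2 fold changes were -0.23 and -0.35.

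**Figure D3:**
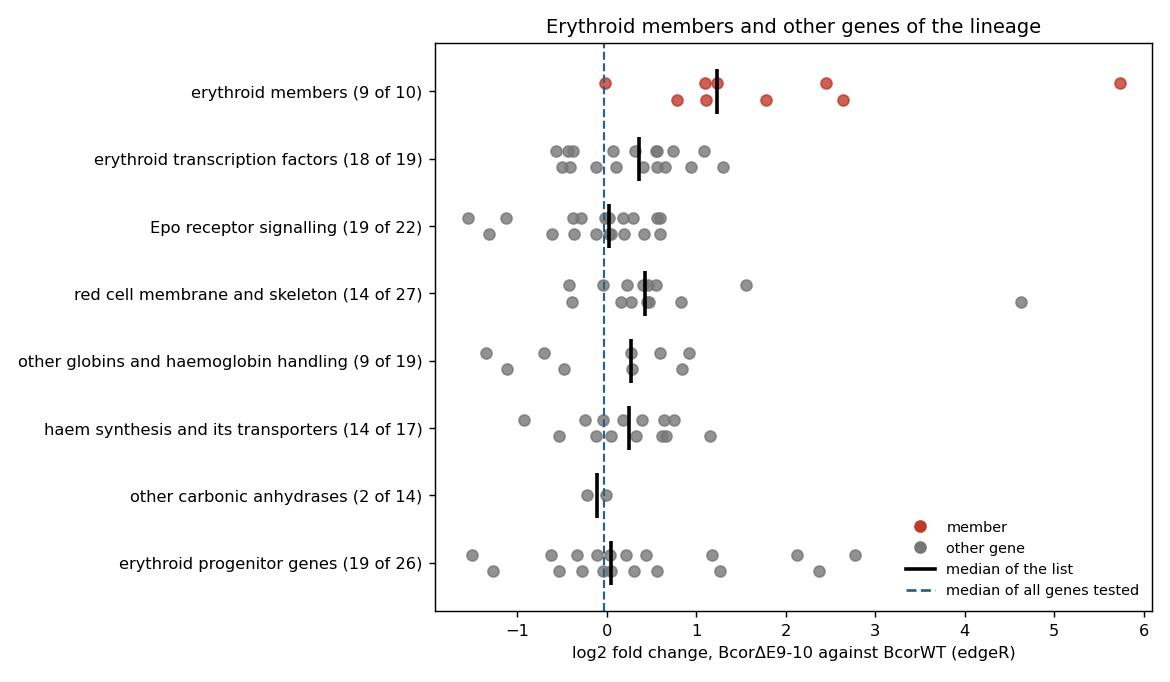
Log2 fold change (x axis, edgeR, BcorΔE9-10 against BcorWT) of each measured gene, by list; red points are the 9 erythroid genes chosen with this contrast known, grey points the genes of the other lists, black bars list medians and the dashed line the median of all genes. The other lists have medians between -0.11 and 0.43, against 1.24 for the chosen genes.

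Among erythroid transcription factors, 12 of 18 measured genes were above 0 and 6 below, with a median log2 fold change of 0.36. Tal1, the factor whose enhancer drives the Cre, was the only one at an unadjusted p under 0.05, at 1.08 (SE 0.38) with 160 and 133 counts, and 47 and 56 in BcorWT libraries. Zfpm1 (FOG1, the cofactor of GATA1) was at 1.30 with 60 and 45 counts against 17 and 14, and Myb, which holds progenitors in cycle, was at 0.56. Lyl1, a relative of TAL1, was the lowest at -0.56. None of these 4 passed the test (edgeR adjusted p 0.945 each).

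For signalling from the erythropoietin receptor, 10 of 19 measured genes were higher and 9 lower, with a median log2 fold change of 0.03. Jak2, the kinase bound to the receptor, was at 0.59 with 239 and 248 counts against 100 and 143. Grb2, an adaptor, and Pim1, a kinase induced by STAT5, were at 0.03 and -0.01. The adjusted p was 0.945 for Jak2 and 0.994 or more for the other two in edgeR.

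The red cell membrane and skeleton list had 11 of 14 measured genes higher and 3 lower, with the highest median of the 7 lists, 0.43. Epb41, which encodes protein 4.1, was at 0.55 and Sptbn1, a spectrin that other cells also make, at 0.27. Cd47, the signal that protects cells from phagocytosis, was at 0.16 and Tmod1, which caps actin filaments, at -0.42.

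For the remaining globins and the handling of haemoglobin, 5 of 9 genes were higher and 4 lower, with a median of 0.28. Prdx2, a peroxidase abundant in red cells, was at 0.29 with 444 and 345 counts against 195 and 300. In the haem pathway, 9 of 14 genes were higher and 5 lower, with a median of 0.25. Alas1, the housekeeping form of the first enzyme, was at 0.18 and Alad, the next enzyme, at 0.75, while Ppox was at -0.92 with its highest count, 1321, in BcorWT replicate 2 and 275 to 586 in the other 3 libraries. The erythroid form of the first enzyme, Alas2, and the alpha globin chaperone Ahsp were not analysed here.

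Of the other carbonic anhydrases, Car3 and Car9 were measured among 14 listed. Car9, a hypoxia-induced isoform, had 15 and 13 counts, and 4 and 19 in BcorWT libraries, and its log2 fold change rounded to 0 and took either sign depending on the fit. Of the genes of erythroid progenitors, 11 of 19 were higher and 8 lower, with a median of 0.05. Cd24a and Tmem14c, a surface antigen of many precursors and a mitochondrial transporter of the haem pathway, were at 0.30 and 0.22, Cited2 was at 0.57 and Trib2 at -1.27, and none passed the test (edgeR adjusted p of 0.945 or more). With 1 library left out, Cited2 ran from 0.16 (without BcorWT replicate 2) to 1.12 (without BcorWT replicate 1), and Trib2 was at -0.42 without BcorWT replicate 1 and -1.83 without BcorWT replicate 2.

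Markers of other blood cells were summed in each library beside the members. They include late neutrophil and lymphoid markers, of cells that the lineage-negative gate was set to remove. The 9 members summed to 180 and 143 CPM in BcorΔE9-10 and to 49.6 and 65.9 CPM in BcorWT libraries, a ratio of means of 2.80, and to a ratio of 3.24 without the globins. For Car1, Car2, Rhd and Klf1, the 4 members with the highest log2 fold changes, picked after their values were seen, the ratio was 4.97, and Rhd and Klf1 were in the table only through the group where they were high. Megakaryocyte markers, whose lineage shares a progenitor and Gata1 with red cells, stood at 278 and 330 CPM against 267 and 380 CPM, with 4 of 8 higher and 4 lower. The most abundant, Gp1bb (a platelet glycoprotein) and Fli1 (a transcription factor), had log2 fold changes of -0.57 and 0.32. Pf4, platelet factor 4, was at 14.8 and 12.4 CPM in BcorΔE9-10 and 23.4 and 30.1 CPM in BcorWT libraries, a log2 difference of -0.98. It was the only one of the 8 at an unadjusted p under 0.05 (edgeR p 0.0263, adjusted 0.945), against 3.07% of all genes in this direction. It was also the only one lower in both BcorΔE9-10 libraries. Plek, pleckstrin, was the only one higher in both, at 51.2 and 55.7 against 42.3 and 23.3 CPM (0.71 on the log2 scale), so that 1 of 8 was separated in each direction, against 16.8% and 17.1% of all genes. None of the 8 was at 0 in any library. Markers of granulocyte and monocyte progenitors stood at 11466 and 8918 against 11764 and 11926 CPM, and those of late neutrophils at 63837 and 156460 against 95273 and 145033 CPM. The log2 fold changes were -0.11 for Mpo and -0.36 for Prtn3, granule proteins of early granulocytes, and -1.04 for Ngp and 0.23 for S100a8, which appear later. Lymphoid markers stood at 43.4 and 25.9 against 38.3 and 18.8 CPM, with Vpreb1 and Ebf1, genes of early B cells, at 0.94 and -0.23 on the log2 scale. Vpreb1 was at 0.14 without BcorΔE9-10 replicate 1, 0.33 without BcorWT replicate 2 and 1.89 without BcorWT replicate 1. None of the genes named here from these lists passed the test (edgeR adjusted p of 0.945 or more). In these 4 lists the genotypes overlapped or, for granulocyte and monocyte progenitors, the BcorΔE9-10 libraries were the lower by a ratio of 0.860.

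Markers of eosinophils, basophils and mast cells were lower in BcorΔE9-10 cells. All 10 measured (of 13 listed) had a lower mean in BcorΔE9-10 cells, and their sum was at 282 and 252 CPM against 593 and 768 CPM, a ratio of 0.393. In 9 of the 10 both BcorΔE9-10 libraries were below both BcorWT libraries, against 17.1% of all genes. An unadjusted p under 0.05 was found for 6, against 3.07% of all genes in this direction, and an adjusted p under 0.05 for none in edgeR with all 4 libraries. Prss34, a basophil protease, had 203 and 305 counts in BcorΔE9-10 and 471 and 1257 in BcorWT libraries, giving a log2 fold change of -2.10 (SE 0.39, edgeR adjusted p 0.419, DESeq2 adjusted p 6.23e-04). Without BcorWT replicate 1 it was called in edgeR, at -2.44 with an adjusted p of 0.00441, and over the other fits the adjusted p reached 0.999. Prg2, the major basic protein of eosinophils, was at -0.79. None of these 10 genes was at 0 in any library. The part that this difference in marker levels, or the level of any other lineage, has in the values of the erythroid members was not tested.

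**Figure D4:**
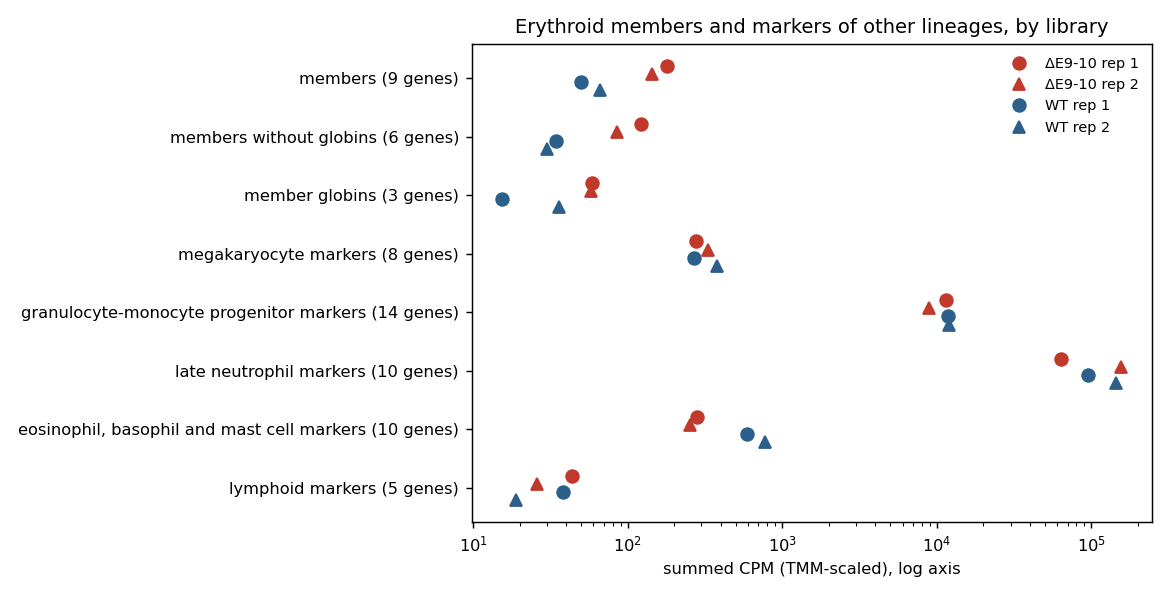
Summed TMM-scaled CPM (x axis, log scale) of the erythroid genes and of marker lists of other lineages in each library; red, BcorΔE9-10; blue, BcorWT; circles, replicate 1; triangles, replicate 2. The sums of the erythroid members are higher in red, eosinophil, basophil and mast cell markers are higher in blue, and the megakaryocyte, late neutrophil and lymphoid sums overlap.

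The genes of the sort itself were read as a check of the gate, with Cd34, which was not among its antigens, beside them. Kit was at 29.4 to 61.9 CPM and Cd34 at 41.7 to 64.2 CPM over the 4 libraries, while Ly6a, which encodes Sca-1, had 0 to 20 counts. Ptprc, which encodes CD45, was at 81.9 to 149 CPM. Ly6g and Itgam, which encode antigens used in the lineage depletion, were at 39.6 to 174 and 73.7 to 159 CPM, and so were not absent. The late neutrophil markers above summed to 63837 and 156460 CPM in BcorΔE9-10 and to 95273 and 145033 CPM in BcorWT libraries. In every library this was above the sum of the granulocyte and monocyte progenitor markers, so transcripts of cells that the gate was set to remove were abundant. On the log2 scale, Ptprc differed by 0.51 and Ly6g by -0.66 between the genotypes (edgeR adjusted p 0.945 each). The value of Ly6g was -0.04 without BcorΔE9-10 replicate 1, -0.15 without BcorWT replicate 2, -1.03 without BcorWT replicate 1 and -1.76 without BcorΔE9-10 replicate 2. The 6 genes summed to 322 and 545 CPM in BcorΔE9-10 and to 416 and 438 CPM in BcorWT libraries.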

How the data were processed

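Quant-seq 3′ mRNA libraries of donor-derived KL cells (2 BcorΔE9-10, 2 BcorWT) were analysed. Per the study's methods and the submitters' processing notes, the authors removed reads of low quality and used cutadapt for trimming (the version differs between these sources), HISAT2 for alignment to mm10 and featureCounts (Subread) for counts per gene. The table they deposited holds these counts without normalization. In BcorΔE9-10 replicate 2 and BcorWT replicate 1 the deposited values were handled like estimated counts, since 1 gene (Gm4430) had a value that was not whole in each, and were rounded. Strand and multimapping settings of the counting are not given in the sources used here.

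The members and gene lists were chosen with earlier results of these data known. All 12067 genes were fitted with edgeR 4.0.16 in R 4.3.3 (filterByExpr, which removed 0 genes, TMM scaling, quasi-likelihood F test, edgeR's default prior count, Benjamini-Hochberg adjustment over all genes, threshold 0.05). The standard error was the log2 fold change divided by the square root of F. CPM were scaled by TMM factors, and log2 CPM had a prior count of 2. With 2 against 2 libraries an exact permutation test cannot go below p = 0.333, so summed levels were given without a test. Intervals are 95% (exact for ratios of counts, Wilson for shares) and cover counting error only. The fit was tested on simulated data before use.

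Named genes were all members measured, and of each erythroid list every gene with an adjusted p under 0.05, the 2 with the highest mean CPM, and the highest and lowest log2 fold change among those with a mean of at least 5 CPM. Of each marker list the 2 with the highest mean CPM were named, and for Car1, Klf1 and Hba-a1 the 3 genes with the nearest profile. Other genes were named after their values were seen. Positions came from GENCODE M21 (GRCm38), in which 11948 symbols of the table (99.0%) were found, and promoters from RefSeq. Transcripts were aligned with Biopython 1.88, and figures were drawn with matplotlib 3.10.9 from tables read with pandas 2.3.3 in Python 3.11.15. Alternatives were DESeq2's size factors, no filter, a minimum of 10 counts in each of the libraries, limma-voom (limma 3.58.1), DESeq2 1.42.0, a replicate block, a prior count of 2, Gm42418 left out, and each library left out in turn.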

Additional observations from a re-analysis of the deposited data

How the results depend on the processing

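Of the 9 members, 8 kept their direction in each of the 12 alternative settings that could give a value, and Gata1 changed sign without BcorΔE9-10 replicate 2 and without BcorWT replicate 2. A minimum of 10 counts in every library removed Rhd, Klf1 and Gata1 before the fit. With 2 libraries a genotype, a fit without 1 of them assumes that the lone library varies like the other genotype. The cause of the changes was not tested.

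The members' median log2 fold change was 1.24, and 0.82 to 1.87 with 1 library left out. The ratio of summed levels, on the log2 scale, was 1.18 for the globins (0.69 to 1.91) and 2.31 for Car1, Car2, Rhd and Klf1 (1.85 to 3.0). Over all genes edgeR called 2, against 5 with that minimum, 4 in limma-voom, 43 in DESeq2 and 6 to 596 with 1 library left out, the most without BcorWT replicate 1. Genes at an unadjusted p under 0.05 numbered 533, and 243 to 3013 with 1 library left out. For the other erythroid genes the adjusted count was 0 (0 to 4), the higher and lower counts at an unadjusted p under 0.05 were 6 (1 to 15) and 2 (0 to 12), 3 and 4 with the minimum of 10 counts, and 0 lower in limma-voom. Their median was 0.19 (0.18 to 0.24), and 0.0493 with that minimum.

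The replicate numbers of the labels were not taken as pairs. The correlation of the deviations of same-numbered libraries was -0.094, which cannot show whether such libraries were handled together. With the number as a block, 14 genes were called over all genes, and the log2 fold changes of Pim1, Car9 and Ebf1 turned to 0.056, 0.14 and 0.13. Car9 was at 0.041 in limma-voom, 0.011 in DESeq2 and 0.00034 with a prior count of 2, and limma-voom gave 0.061 for Pim1 and 0.39 for Ebf1.

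With 1 library left out, the log2 fold change took both signs in Pim1 (-0.40 to 0.51), Grb2 (-0.17 to 0.25), Cd47 (-0.24 to 0.69), Prdx2 (-0.012 to 0.54), Ppox (-1.52 to 0.12), Car3 (-1.02 to 0.28), Car9 (-0.55 to 1.05), Tmem14c (-0.12 to 0.66), Gp1bb (-1.16 to 0.43), Mpo (-0.49 to 0.20), Ngp (-1.80 to 0.038), S100a8 (-0.47 to 0.71) and Ebf1 (-1.02 to 1.41). It kept its sign over ranges that included Rhag (3.48 to 7.31), Hbb-bs (0.41 to 1.80), Sphk1 (1.52 to 3.89), Cldn13 (2.35 to 3.64), Pklr (1.70 to 3.0), Zfpm1 (0.88 to 1.79), Lyl1 (-0.92 to -0.09), Myb (0.36 to 0.74), Tmod1 (-0.63 to -0.22), Alas1 (0.06 to 0.29), Alad (0.42 to 1.10), Cd24a (0.09 to 0.54), Fli1 (0.04 to 0.66), Prg2 (-1.11 to -0.52) and Ptprc (0.24 to 0.74).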

Other observations

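Genes with almost no counts in BcorWT libraries were looked for over the whole table, a search made after the values of Rhd were seen. In all, 14 genes had at most 5 counts summed over the BcorWT libraries and at least 30 summed over the BcorΔE9-10 libraries, and 13 genes had the reverse. Cldn13, one of the 14, had a pooled ratio of 6.81 (95% exact counting interval 2.71 to 22.0). The one with the most counts was Echdc2, with 71 and 50 counts in BcorΔE9-10 and 3 and 2 in BcorWT libraries, giving a log2 fold change of 4.12 (SE 0.72, edgeR adjusted p 0.419). These values are a description, since the 14 genes were picked by their counts. All 14 were under 2 CPM (unscaled) in both BcorWT libraries and so stood in the table only through the group where they were high. Echdc2 encodes a protein related to enoyl-CoA hydratases and was in none of the lists. The 14 also included 6 genes named only by a Gm number and pseudogenes of Rpl35a and Rbm3.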
